A study of Rattus norvegicus and Mus musculus with 34 samples.

Results

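Dmp1, Mepe, Phex, Sost and Fgf23, 5 genes by which osteocytes and maturing bone matrix are usually recognised, were followed in the healing bone of rats with and without sensory innervation. They were chosen by gene symbol, each matched 1 row, and they are 5 of the 20022 genes in the count tables of the rat tissue. A periodontal bone defect was made in the mandible of 23 rats, and the healing tissue of each rat was sequenced once, at day 3, 7 or 14. In the sensory nerve- rats a piece of the inferior alveolar nerve, the sensory nerve of the mandible, had been cut out, and in the sensory nerve+ rats the nerve was left intact. All 23 rats were wild-type male Sprague-Dawley rats, 6 to 8 weeks of age, and all carried the bone defect. There were 4 rats in every group of 1 nerve state and 1 day, except 3 in the sensory nerve+ group at day 3. The labels name the tissue as mixed cells, with no sorting of bone cells, and the transected nerve also carried fibres to the teeth and the lip.

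Osteocytes are osteoblasts that have become enclosed in the matrix they laid down, and they form the most numerous cell type of mature bone. Dmp1 and Mepe encode acidic phosphoproteins of the small integrin-binding ligand, N-linked glycoprotein family, which bind mineral and collagen, and Phex encodes a cell-surface endopeptidase that cleaves peptides of that family. Loss of Dmp1 or of Phex raises the output of Fgf23, the bone-derived hormone that makes the kidney excrete phosphate. Sost encodes sclerostin, a secreted inhibitor that binds the Wnt co-receptors Lrp5 and Lrp6 and restrains osteoblasts. Dmp1 and Phex come on as an osteoblast is being embedded and Sost late, in the enclosed cell, and in a tooth-bearing jaw Dmp1, Mepe and Phex are also made by odontoblasts, the cells that lay down dentine.

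Dmp1 and Mepe lie in the same gene cluster. In the RefSeq annotation of GRCr8 the order of protein-coding genes there was Pkd2, Spp1, Mepe, Ibsp, Dmp1, Dspp and Sparcl1. Dmp1 and Mepe moved together across most rats (Pearson's r 0.8), and so did Dmp1 with Phex (0.86) and Sost with Mepe (0.82). Phex and Sost are not in the cluster, and its part in the levels was not tested. RefSeq windows around the gene start, from 250 bases before it to 50 bases after it, were at hand for Dmp1, Mepe and Sost, 3 of the 5 genes, and they are printed 5′ to 3′ along the gene to set the starts of these co-moving genes side by side. The windows were Dmp1 at chr14:5840035-5840334, Mepe at chr14:5736809-5737108 and Sost at chr10:87415717-87416016, all on the minus strand of GRCr8, a newer build than the mRatBN7.2 to which the reads were aligned. Capitals mark a match to TGTGGT, the core of a site for RUNX factors, or to TGAGTCA, a site for AP-1 factors.
Dmp1: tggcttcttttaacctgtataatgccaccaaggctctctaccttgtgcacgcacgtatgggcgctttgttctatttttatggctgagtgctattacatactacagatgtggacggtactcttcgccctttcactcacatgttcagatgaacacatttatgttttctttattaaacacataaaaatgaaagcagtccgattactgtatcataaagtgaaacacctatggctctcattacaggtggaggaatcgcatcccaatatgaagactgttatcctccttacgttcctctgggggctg
Mepe: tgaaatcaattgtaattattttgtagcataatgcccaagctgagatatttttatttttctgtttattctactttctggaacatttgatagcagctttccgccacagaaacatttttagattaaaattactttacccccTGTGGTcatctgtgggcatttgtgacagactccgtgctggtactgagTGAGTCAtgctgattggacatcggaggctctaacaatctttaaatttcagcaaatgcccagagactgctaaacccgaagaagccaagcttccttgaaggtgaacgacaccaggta
Sost: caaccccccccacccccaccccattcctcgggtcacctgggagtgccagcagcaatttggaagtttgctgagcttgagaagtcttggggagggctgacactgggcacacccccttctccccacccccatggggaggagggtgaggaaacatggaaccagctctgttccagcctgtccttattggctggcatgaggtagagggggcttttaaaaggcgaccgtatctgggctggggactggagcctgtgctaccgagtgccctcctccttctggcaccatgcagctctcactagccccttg
The Mepe window held 1 RUNX match, which began 112 bases before the start, and 1 AP-1 match, 65 bases before it, and neither overlapped the other. The Dmp1 and Sost windows held no match to either motif or to the TATA box letters TATAAA on either strand. Windows were set on the annotated gene start, and whether transcription begins there was not checked. In the Dmp1 and Sost windows an ATG follows shortly after that start, so these windows may not hold the promoter. Of 33469 rat windows of the same length, 17.3% held TGTGGT, 4.6% held TGAGTCA and 14.2% held TATAAA, both strands counted. GC made up 42.0% of the Dmp1 window and 60.7% of the Sost window, and the Mepe window was the poorest of the 3 in GC.

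The files held expected counts, estimated numbers of reads per gene that need not be whole, and their total ran from 14854389 to 18742274 per rat. Levels below are CPM, counts divided by a library size that was adjusted by the trimmed mean of M values over the 23 rats, which compare 1 gene between rats and not 1 gene with another, since they are not divided by gene length. Dmp1, Mepe and Phex were counted in every rat, with up to 8115, 2934 and 2559 counts. Sost reached 76 counts at most, with 9 of 23 rats at 3 counts or fewer, and Fgf23 reached 23 counts, with 18 of 23 rats at 3 or fewer. Sost and Fgf23, the 2 genes of the 5 most restricted to osteocytes, did not exceed 18 and 4 counts before day 14, and before then the tissue is described mainly by Dmp1, Mepe and Phex, which other mineralising cells also make. The tissue differed widely between rats. The summed CPM of 10 skeletal muscle genes ran from 21.4 to 38369, that of 7 ameloblast genes, of the enamel-forming cells, from 0 to 23205, and 6 rats held more than 1000 counts of Dspp, which encodes the main dentine phosphoprotein. Only the day-7 sensory nerve- rats were deposited in a table of their own, so for them the table and the transection cannot be told apart. In bulk tissue, fewer cells of a type and less RNA per cell cannot be told apart either.

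Dmp1 was highest at day 14 after transection, at a mean of 475 CPM ± 275 (SD, n = 4), and next in the innervated rats of the same day, at 113 ± 37.3 (n = 4). The 4 sensory nerve- rats at day 14 measured 625, 417, 115 and 743 CPM and the 4 sensory nerve+ rats 112, 150, 128 and 61.9 CPM. Replicate 3 of the sensory nerve- group lay among the innervated rats, and the other rats of that group lay above all of them. The place of replicate 3 depended on the scaling. Its 1048 counts were under the 1081 to 2999 of the innervated rats, although its total, 18274588, exceeded their highest, 17782819. At day 7 the innervated rats measured 4.12, 67.2, 21.1 and 74.0 CPM and the denervated rats 7.13, 26.9, 34.9 and 97.0 CPM, which is the same range. At day 3 the innervated rats measured 1.97, 65.7 and 54.3 CPM, and the denervated rats 46.3, 23.8, 304 and 26.7 CPM, of which replicate 3 stood apart. In the order of group means, from sensory nerve+ day 3, sensory nerve- day 7, sensory nerve+ day 7, sensory nerve- day 3 and sensory nerve+ day 14 to sensory nerve- day 14, each group overlapped the next, and for the other 4 genes neighbouring groups in the order overlapped as well.

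Mepe, which encodes a matrix protein whose acidic C-terminal peptide inhibits mineralisation, showed the same order at day 14. The day-14 sensory nerve- rats measured 197, 165, 14.3 and 253 CPM, a mean of 157 ± 102 (SD, n = 4), and the day-14 sensory nerve+ rats 17.3, 45.6, 28.3 and 12.4 CPM, a mean of 25.9 ± 14.7 (n = 4). As for Dmp1, replicate 3 of the denervated rats was within the innervated range of CPM. Its 131 counts were under the 217 to 915 of the innervated rats. At day 7 the denervated rats measured 2.13, 8.81, 3.52 and 14.6 CPM and the innervated rats 0.785, 9.12, 0.428 and 17.5 CPM. At day 3 the denervated rats measured 15.1, 1.67, 1.03 and 7.10 CPM and the innervated rats 0.722, 4.25 and 8.14 CPM, so that no rat before day 14 exceeded 17.5 CPM.

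Phex, the endopeptidase, followed the same order at day 14. The sensory nerve- rats measured 133, 129, 26.2 and 234 CPM, a mean of 131 ± 85.0 (SD, n = 4), and the sensory nerve+ rats 21.7, 59.4, 23.5 and 13.9 CPM, a mean of 29.6 ± 20.3 (n = 4). Replicate 3 was again the low rat of the denervated group. Day 7 was the only day at which the mean was lower without the nerve, with 3.99, 3.81, 15.1 and 18.3 CPM in the denervated and 2.40, 34.5, 21.5 and 26.0 CPM in the innervated rats, and these overlapped. The day-3 rats measured 2.10, 3.48, 15.2 and 6.89 CPM without the nerve and 1.05, 14.9 and 4.17 CPM with it.

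Sost, the late osteocyte gene, had low counts throughout. Its day-3 counts, in whole numbers, summed to 10 over the 4 denervated rats and to 7 over the 3 innervated rats. At day 7 the denervated rats held 1, 3, 11 and 18 counts and the innervated rats 8, 8, 1 and 6, so that the highest of them exceeded several day-14 rats. At day 14 the sensory nerve- rats held 41, 76, 6 and 59 counts, or 3.33, 4.28, 0.657 and 5.40 CPM, and the sensory nerve+ rats 10, 43, 6 and 9 counts, or 0.547, 2.14, 0.345 and 0.516 CPM. Replicate 3 was the low rat of the denervated group here too, and replicate 2 the high rat of the innervated group. Per total count, Sost was 20.8 times as high at day 14 as at day 3 without the nerve (95% exact interval 11.1 to 44.1) and 7.82 times with it (3.6 to 20.2), intervals that cover counting error only.

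Fgf23 was the exception, with its highest counts in the innervated rats at day 14. These 4 rats held 10, 2, 23 and 13 counts, against 0, 1, 7 and 2 counts in the denervated rats of that day. Before day 14 no rat held more than 4 counts, and 5 of the 23 rats held none, with 3 counts as the number that a count of 0 still allows. The innervated group at day 14 summed to 48 counts against 5 at day 7 and 1 at day 3, which is 9.69 times the day-7 level per total count (95% exact interval 3.88 to 31.2) and 38.6 times the day-3 level (6.61 to 1560). The denervated group at day 14 summed to 10 counts, 0.219 times the innervated level per total count (0.0988 to 0.439). These intervals again cover counting error and not the spread between rats, and the 2 groups of rats overlapped. At day 14 the 4 rats with the most Fgf23 were also the 4 with the most muscle transcripts, though not in the same order. These were innervated replicates 1, 3 and 4 and denervated replicate 3. The summed muscle CPM was 28381, 266, 14648 and 19011 in the innervated rats and 233, 1371, 7718 and 305 in the denervated rats, in the order of the Fgf23 counts above, and its part in the result was not tested.

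**Figure D1:**
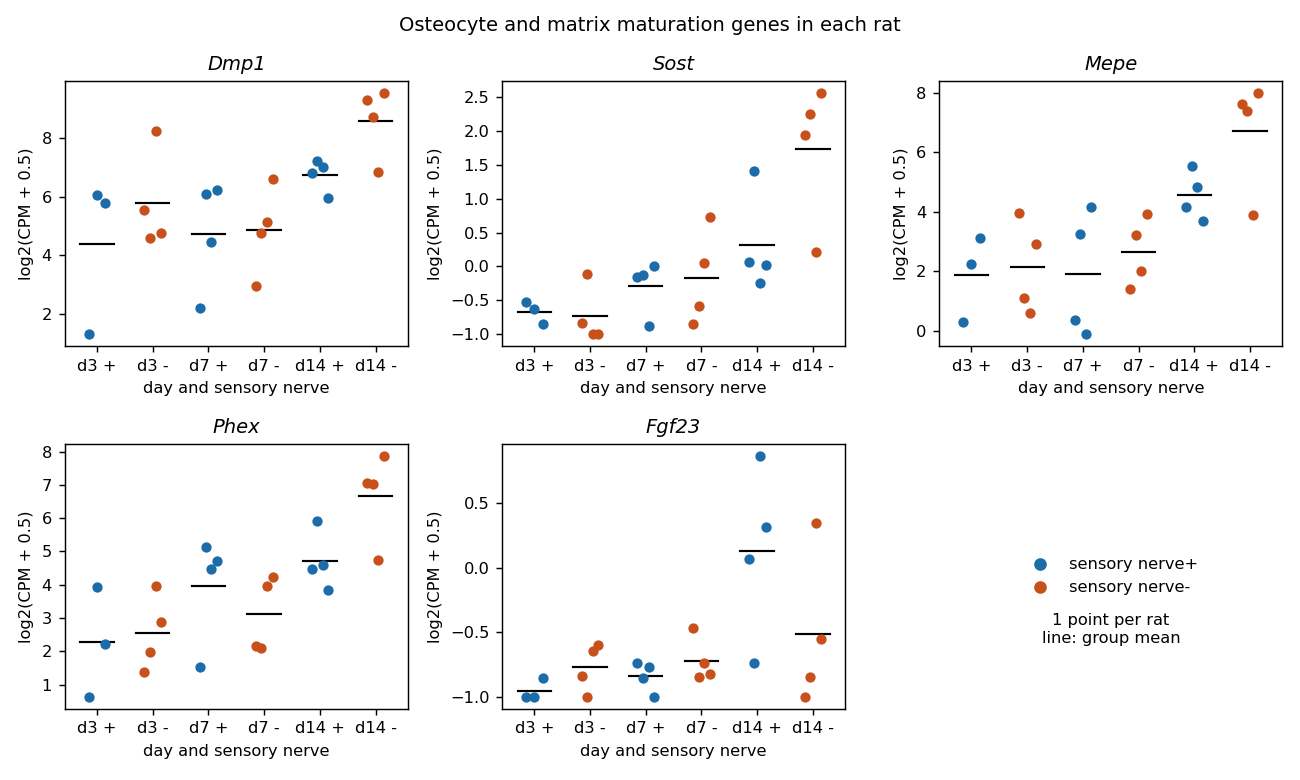
Level of the 5 genes in each of the 23 rats, as log2 of CPM plus 0.5, by day (d) and nerve state. Each point is 1 rat and the line is the mean of the log2 values of a group; Dmp1, Mepe, Phex and Sost are highest in the day-14 sensory nerve- rats, where replicate 3 lies low, and Fgf23 in the day-14 sensory nerve+ rats.

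The first comparison asked how these genes changed as healing went on, within each nerve state. Without the nerve, Mepe and Phex rose from day 3 to day 14, the 2 edgeR calls among the 50 tests of a member in 13 comparisons. Phex rose by 4.18 on the log2 scale (SE 0.828, edgeR, adjusted p = 0.0123) and all 4 day-14 rats exceeded all 4 day-3 rats. Mepe rose by 4.65 (SE 1.1, edgeR, adjusted p = 0.0211), although day-14 replicate 3, at 14.3 CPM, lay just under day-3 replicate 1, at 15.1 CPM. Dmp1 differed by 2.18 (SE 0.96, edgeR, adjusted p = 0.132), and Sost and Fgf23 were too low to be tested. With no filter on low counts Sost differed by 4.62 (edgeR adjusted p = 0.0309), and its CPM did not overlap between the days, although its raw counts did, with 9 in day-3 replicate 2 and 6 in day-14 replicate 3. Against this, 3396 of 14449 genes tested, or 23.5%, were called, 8.89% as higher and 14.6% as lower, and 10.2% were higher with no overlap between days. The median difference was 4.18 over the 3 members tested and -0.05 over all genes tested.

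These calls rested on the spread of few rats. In the 8 fits that each left out 1 rat, Phex was called every time, with edgeR adjusted p from 0.0112 to 0.039. Mepe lost its call without sensory nerve- day 3 replicate 2 (4.33, edgeR adjusted p = 0.0546) and without replicate 4 of that group (4.73, edgeR adjusted p = 0.0552). Dmp1 gained one when the day-3 rat at 304 CPM, replicate 3, was left out (3.86, edgeR adjusted p = 0.0121). Without day-14 replicate 3, the low rat of its group, Mepe differed by 5.03 and Phex by 4.51, both still called. Cell types moved with time as well. Among the denervated rats the summed CPM of the muscle list was 21.4 to 402 at day 3 and 233 to 7718 at day 14, and 6 of the 9 muscle genes tested were called higher. The ameloblast list ran from 5.49 to 11719 at day 3 and from 0 to 16.4 at day 14, and the osteoblast list from 24114 to 57045 and from 26361 to 80731. The part of these tissues in the rise of Mepe and Phex was not tested.

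From day 7 to day 14 without the nerve, 2 of 14447 genes tested, or 0.0138%, were called by edgeR and no member was among them. Dmp1 differed by 3.54 (SE 0.851), Mepe by 4.46 (SE 0.94), Phex by 3.68 (SE 0.786) and Sost by 2.86 (SE 0.874), with edgeR adjusted p of 0.104, 0.104, 0.104 and 0.128. Dmp1 and Phex did not overlap between these days, as was so for 5.59% of the genes tested. DESeq2, the other tool, called 1991 genes here, all 4 of these members among them. Day 7 and day 14 of this nerve state came from different tables, which cannot be told apart from time.

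With the nerve intact edgeR called no member at any step. From day 3 to day 14, where 871 of 15065 genes tested were called, 5.78%, with 2.69% as higher and 3.09% as lower, Mepe differed by 2.58 (SE 0.817, edgeR adjusted p = 0.0965), Phex by 2.13 (SE 0.917, 0.182) and Dmp1 by 1.48 (SE 0.95, 0.35). Fgf23 had the largest fitted difference of the members in this comparison, 4.8 (SE 1.23, edgeR adjusted p = 0.062), which depends on the single count among the day-3 rats. Fgf23 passed the filter on low counts through the day-14 rats alone, and in only 4 of the 7 fits that left out 1 rat. It was called in 1 of these, without day-14 replicate 2, the rat with 2 counts (5.19, edgeR adjusted p = 0.0154). Over the 4 fits the edgeR adjusted p reached 0.171. DESeq2 called 3376 genes here, with Mepe (2.6), Phex (2.17) and Fgf23 (5.15) among them. Mepe, Sost and Fgf23 each showed no overlap between day 3 and day 14. The nearest rats of the 2 days held 3 and 6 counts for Sost and 1 and 2 counts for Fgf23. Of the genes tested, which did not include Sost, 10.5% were higher without overlap. From day 7 to day 14, where 3 of 14867 genes were called, 0.0202%, Dmp1 differed by 1.47 (SE 0.75), Mepe by 1.94 (SE 1.05) and Phex by 0.51 (SE 0.724), with edgeR adjusted p from 0.568 to 0.848.

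No member was called between day 3 and day 7. In the innervated rats, where 6.67% of 15016 genes were called, 4.88% as higher and 1.79% as lower, Phex differed by 1.7 (SE 1.05, edgeR adjusted p = 0.368), Mepe by 0.7 and Dmp1 by 0.08. In the denervated rats, where 10.5% of 14576 genes were called, 3.68% as higher and 6.77% as lower, Dmp1 differed by -1.32 (SE 1.03, edgeR adjusted p = 0.431), and by 0.36 once day-3 replicate 3 was left out. Mepe and Phex differed by 0.24 and 0.54.

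**Figure D2:**
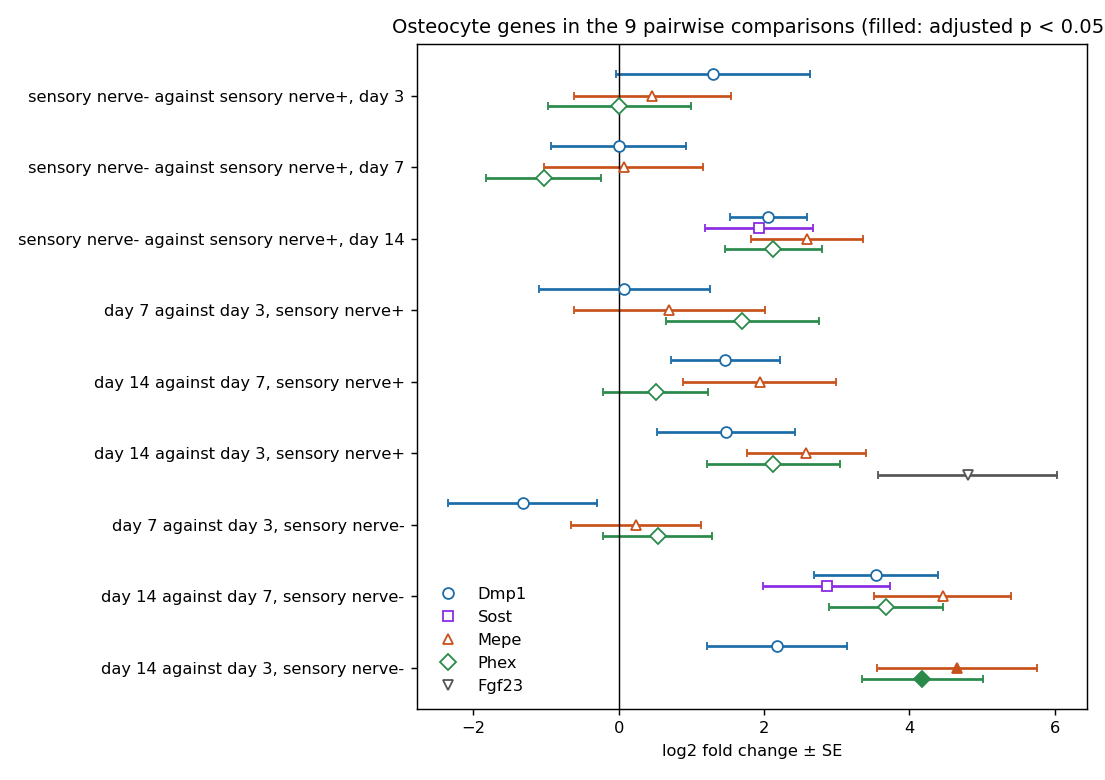
Difference in each gene in 9 comparisons of 2 groups, as log2 fold change with bars of 1 SE from the edgeR F statistic. Filled points passed an adjusted p of 0.05 and genes too low to be tested have no point. The filled points are Mepe and Phex at day 14 against day 3 without the nerve, at 4.65 and 4.18.

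The second comparison asked what transection did on a given day. At day 14 the 4 members that could be tested were all higher without the nerve, by about as much as one another, and none passed the correction. Dmp1 differed by 2.06 (SE 0.533), Mepe by 2.59 (SE 0.775), Phex by 2.13 (SE 0.663) and Sost by 1.93 (SE 0.742), each with an edgeR adjusted p of 0.519 and an unadjusted p under 0.05. For each of the 4, at least 1 denervated rat lay within the innervated range of CPM, and 1.33% of genes were higher without overlap. In edgeR 0 of 14610 genes tested, 0.0%, were called at day 14, 1362 had an unadjusted p under 0.05, and DESeq2 called 95, with Dmp1 among them (2.05, DESeq2 adjusted p = 0.0288). The median of the 4 members was 2.09 and that of all genes tested 0.03, or -0.41 when libraries were scaled to their totals alone. Fgf23 was too low to be tested, and with no filter on low counts it differed by -1.54 (edgeR adjusted p = 0.653).

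Leaving out each of the 8 rats in turn moved the day-14 difference of Dmp1 between 1.77 and 2.37. Mepe moved between 2.28 and 2.95, Phex between 1.7 and 2.65 and Sost between 1.64 and 2.77. No fit called any of these genes (edgeR adjusted p from 0.0969 to 0.836). Without denervated replicate 3, the low rat, the differences were 2.37 for Dmp1, 2.95 for Mepe, 2.45 for Phex and 2.23 for Sost, with edgeR adjusted p from 0.179 to 0.322. At days 3 and 7 edgeR called 0 of 14695 and 0 of 14716 genes, both 0.0%, with 122 and 215 genes at an unadjusted p under 0.05, and DESeq2 called 0 and 1. At day 3 Dmp1 differed by 1.3 (SE 1.33), Mepe by 0.46 (SE 1.08) and Phex by 0.01 (SE 0.985), with edgeR adjusted p of 1.0, and without denervated replicate 3 the Dmp1 difference was -0.39. At day 7 Mepe differed by 0.07 (SE 1.09) and Phex by -1.03 (SE 0.795, edgeR adjusted p = 1.0), and Dmp1 had means of 41.5 CPM without the nerve and 41.6 with it.

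Whether the effect of transection itself changed between days was tested in 1 fit over all 23 rats, in which 0 of 15858 genes, 0.0%, were called by edgeR for each of the 3 differences between days, with 164, 611 and 1029 genes at an unadjusted p under 0.05 and 8, 2 and 30 called by DESeq2. Phex had the largest day-14 effect relative to day 7, 3.18 (SE 1.21, edgeR adjusted p = 0.884), with -1.03 at day 7 and 2.13 at day 14. Mepe differed by 2.53, Dmp1 by 2.08 and Sost by 1.43 between these days. Fgf23 ran the other way, by -2.24 against day 7 and -3.47 against day 3 (SE 1.69, edgeR adjusted p = 0.751). Averaged over the 3 days, transection went with differences of 1.13 for Dmp1 (SE 0.6, edgeR adjusted p = 0.912), 1.06 for Mepe, 0.8 for Sost, 0.39 for Fgf23 and 0.38 for Phex, and 0 of 15858 genes, 0.0%, were called by edgeR, with 708 at an unadjusted p under 0.05 and 8 called by DESeq2.

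The tissue of the day-14 rats differed along with these genes. Of the osteoblast list 15 of 15 genes had a higher mean without the nerve, of the osteoclast list 9 of 9, of the erythroid list 6 of 6 and of the macrophage list 5 of 5, while 10 of 10 muscle genes and 7 of 7 Schwann cell genes had a lower mean. The other lists ran both ways, with a higher mean without the nerve for 7 of 9 chondrocyte and 5 of 7 ameloblast genes. It was also higher for 3 of 6 periodontal ligament, 3 of 6 odontoblast and dental mesenchyme, 3 of 8 epithelium and 1 of 7 neutrophil genes. Over all genes tested the median difference was 0.03, and the share with a higher mean was not counted. Summed osteoblast CPM was 25295, 37192, 30926 and 17260 in the innervated rats and 46452, 80731, 26361 and 55595 in the denervated rats. In the osteoblast sum, Col1a1, which many other matrix-forming cells also make, had a mean of 11553 CPM with the nerve and 22831 without it. Summed osteoclast CPM was 2510, 3704, 2466 and 1709 with the nerve and 7187, 13237, 1383 and 12938 without it. Denervated replicate 3, the low rat for Dmp1, Mepe, Phex and Sost, was also the low rat of its group for both bone lists, took 41.4% of its counts from the erythroid list, and had the highest muscle sum of its group, 7718 CPM. In the other denervated rats erythroid genes took 0.215% to 26.8% of the counts, and in the innervated rats 1.15% to 16.7%. The 14 osteoblast genes tested had a median difference of 1.09 and 0 were called, against 2.09 for the members. The part of tissue makeup in the day-14 differences was not tested.

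**Figure D3:**
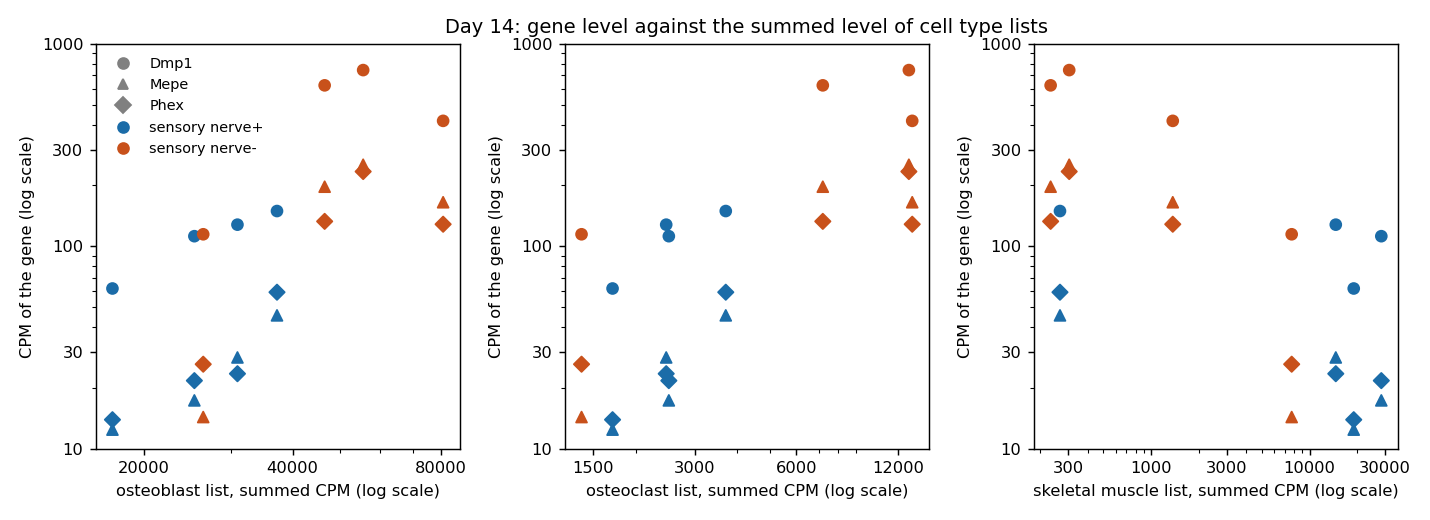
CPM of Dmp1, Mepe and Phex in the 8 day-14 rats against the summed CPM of the osteoblast, osteoclast and skeletal muscle lists, on log axes; each symbol is 1 gene in 1 rat, coloured by nerve state. The denervated rat with the lowest Dmp1 (115 CPM) and Mepe (14.3 CPM) sits at the lowest bone-list sums and the highest muscle sum (7718 CPM) of its group, and the innervated rat with the least muscle (266 CPM) has the most of all 3 genes in its group.

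A count set against another gene of the same rat does not depend on how libraries are scaled. Dmp1 counts were set against those of Col1a1, the main collagen of osteoblasts and of many other matrix-forming cells, a ratio chosen after the levels had been seen and given with no test. At day 14 the innervated rats held 1.05, 0.890, 1.07 and 0.921 Dmp1 counts per 100 Col1a1 counts and the denervated rats 3.05, 1.14, 1.07 and 3.16. Denervated replicates 1 and 4 stood above every other rat, and replicates 2 and 3 lay near the innervated range. For Mepe the innervated rats ran from 0.162 to 0.271 per 100 Col1a1 counts and the denervated from 0.134 to 1.08, and for Phex from 0.196 to 0.353 and from 0.245 to 0.998.

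Mepe and Dmp1 came apart in 2 rats with tooth transcripts. Mepe made up 0.337 counts per 100 Dmp1 counts in sensory nerve- day 3 replicate 3 and 2.03 in sensory nerve+ day 7 replicate 3, and between 6.47 and 39.6 in the other 21 rats. These 2 rats held 1658 and 5209 counts of Dspp and were among the 6 rats over 1000 counts. The other 4, with 7215, 5276, 1527 and 1749 Dspp counts, are among those 21 rats and help to set that range. Their ratios were 6.47, 13.6, 10.1 and 31.6, of which the first is its lower end. Leaving out all 6, an exclusion chosen after the data were seen, gave a rise of Dmp1 from day 3 to day 14 without the nerve of 3.69 (edgeR adjusted p = 0.0278) and took the call from Mepe, at 4.16 (edgeR adjusted p = 0.0714), while Phex kept its call. The part of dentine-forming tissue in these values was not tested.

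**Figure D4:**
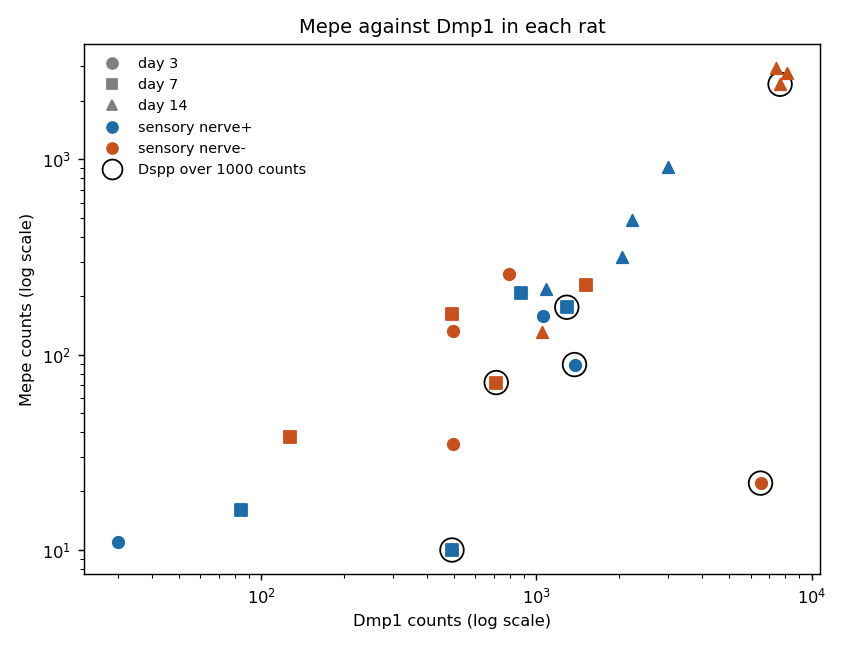
Mepe against Dmp1 in the 23 rats, both as counts on log axes; each point is 1 rat, coloured by nerve state with a symbol for the day, and the 6 rats over 1000 Dspp counts are ringed. Most rats lie along 1 band, and sensory nerve- day 3 replicate 3 and sensory nerve+ day 7 replicate 3, at 0.337 and 2.03 Mepe counts per 100 Dmp1 counts, lie below it.

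The partners of these genes were taken as 4 lists of 45 genes, all in the tables: Fgf23 processing and phosphate handling, mineral deposition, sclerostin receptors with Wnt targets, and other osteocyte genes. Between the nerve states 0 were called by edgeR at any day, of 42 tested at days 3 and 7 and 40 at day 14. At day 14 the largest differences were in the secreted Wnt inhibitors, with opposite signs. Dkk1 differed by 3.03 (SE 0.769) and ranged from 20 to 404 counts without the nerve and from 28 to 89 with it, and Sostdc1, a paralog of Sost, differed by -4.67 (SE 1.16), with 0 to 12 counts against 45 to 404, both at an edgeR adjusted p of 0.519. Spp1 and Ibsp, the family members next to Mepe in the cluster, differed by 1.42 (SE 0.497) and 2.03 (SE 0.865), at the same adjusted p in edgeR. Fam20c, the kinase that phosphorylates this family and Fgf23, differed by 0.43 (SE 0.284), and Galnt3, which protects Fgf23 from cleavage by furin, by 0.51 (SE 0.639), with edgeR adjusted p of 0.585 and 0.791. Lrp4, Lrp5 and Lrp6 differed by 0.36, 0.06 and -0.36. Kl, the co-receptor of Fgf23, was at 5 counts or fewer in every rat and was not tested.

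Over time, partners were called in both directions. From day 3 to day 14 without the nerve, 3 of 41 genes tested were called higher and 5 lower, against 8.89% and 14.6% of all genes. Phospho1, a phosphatase of matrix vesicles, rose by 2.5 (edgeR adjusted p = 0.00936), from a mean of 32.8 CPM to 188, and Tcf7 and Lef1, Wnt-responsive transcription factors, rose by 1.95 and 1.82 (edgeR adjusted p = 0.0274 and 0.0497). Pdpn, a membrane protein of early osteocytes that is also found in lymphatic and stromal cells, fell by 2.36 on the log2 scale (edgeR adjusted p = 0.0164), from 141 CPM to 28.2. Spp1, the osteopontin gene, fell by 1.59, Fam20c fell by 1.13, Capg fell by 1.08 and Tnfrsf11b, the decoy receptor osteoprotegerin, fell by 2.08 (edgeR adjusted p from 0.0229 to 0.034). Phospho1 and Pdpn were called in all 8 fits that left out 1 rat, but Pdpn lost its call when the 6 Dspp rats described above were left out (-2.32, edgeR adjusted p = 0.0696). Each of the other 6 lost its call in at least 1, with edgeR adjusted p from 0.0552 to 0.113, and every rat of these groups but sensory nerve- day 14 replicate 2 ended at least 1 of these calls.

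With the nerve, 0 of 40 genes tested were called higher and 7 lower from day 3 to day 14, against 2.69% and 3.09% of all genes. Spp1 fell by 2.83, Gja1, the gap junction gene of the osteocyte network, fell by 2.36, Pdpn fell by 2.23 and Tnfrsf11b fell by 2.2. Ccn4, Enpp1 and Cd44 fell by 1.31, 1.16 and 1.04 (edgeR adjusted p from 0.0165 to 0.0427 over the 7). Leaving out sensory nerve+ day 3 replicate 3 or day 14 replicate 1, 3 or 4 each ended all 7 calls, with edgeR adjusted p from 0.0537 to 0.15. At day 7 against day 3 Mef2c, a transcription factor that acts on a Sost enhancer and is abundant in muscle, rose by 2.39 and Pdpn fell by 1.35 with the nerve (edgeR adjusted p = 0.0273 and 0.0242), and the muscle sum of these rats went from 28.4 to 73.5 CPM at day 3 to 6002 to 21800 CPM at day 7. Fbln7 rose by 2.63 without the nerve (edgeR adjusted p = 0.0278). Each of these 3 lost its call in at least 4 of the fits that left out 1 rat, Pdpn in 4, Mef2c in 6 and Fbln7 in 5.

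**Figure D5:**
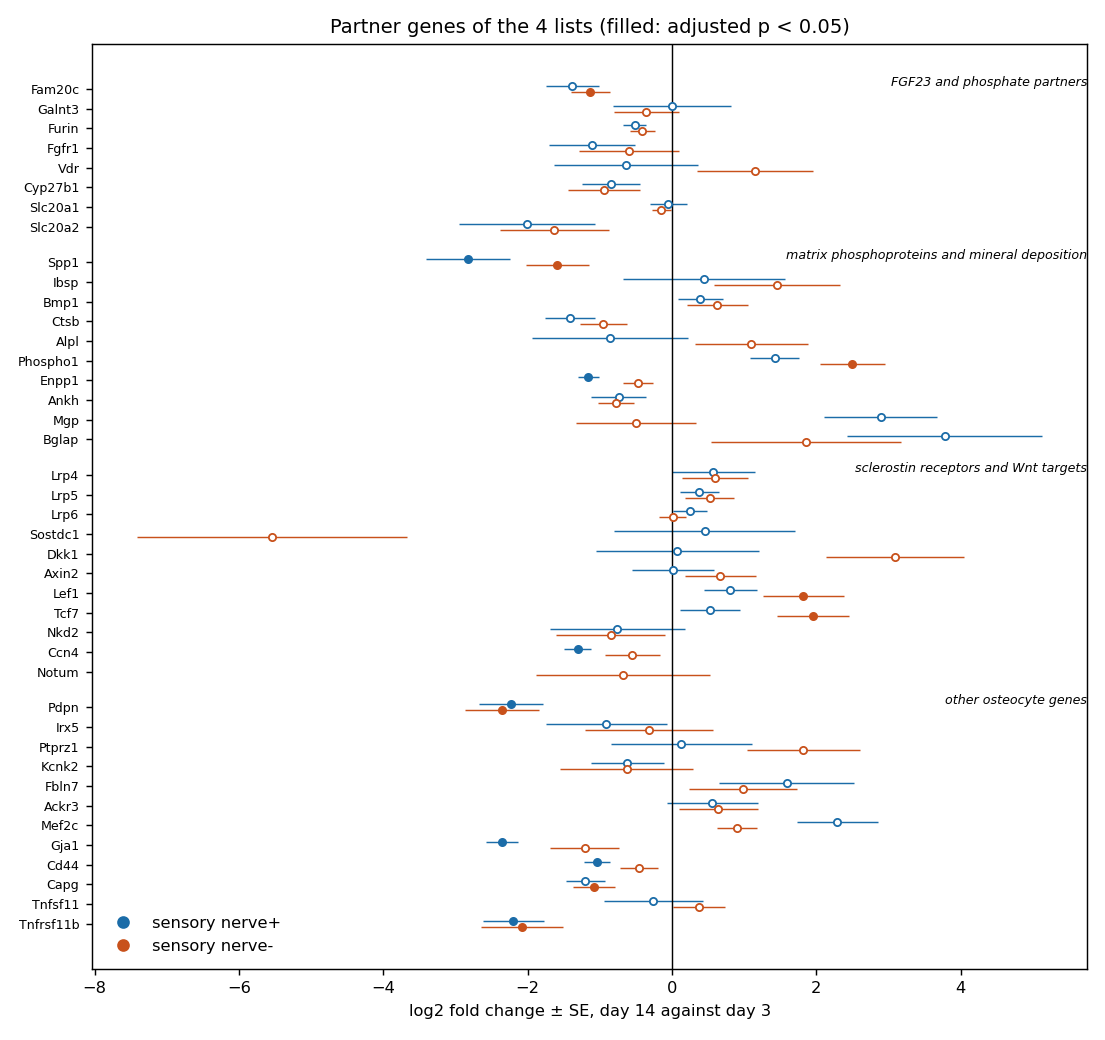
Difference between day 14 and day 3 for the genes tested of the 4 partner lists, as log2 fold change, coloured by nerve state. Bars are 1 SE from the edgeR F statistic, and filled points passed an adjusted p of 0.05. Without the nerve 3 partners are filled above 0 and 5 below it, and with the nerve 7 are filled, all below 0.

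Across the 23 rats the 4 genes other than Fgf23 varied together, on the scale of log2 CPM plus 0.5. Pearson's r was 0.86 for Dmp1 with Phex (Spearman's rho 0.84), 0.82 for Sost with Mepe (0.7), 0.8 for Dmp1 with Mepe (0.8), 0.8 for Sost with Phex (0.64), 0.77 for Mepe with Phex (0.71) and 0.66 for Dmp1 with Sost (0.6). The rats share a day, a nerve state and a tissue makeup, so these are descriptions of the 10 pairs and not tests. After group means were taken off, r stayed at 0.85 for Dmp1 with Phex and was 0.32 to 0.59 for the other 5 pairs of these 4 genes. Fgf23 had an r of -0.04 to 0.17 with the others and of -0.79 with Sost after group means were taken off. Within the day-14 groups, the innervated rat with the most Sost, replicate 2, had the least Fgf23, and the denervated rat with the least Sost, replicate 3, had the most.

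Among the 15857 genes set beside each member, those with the highest r over the 23 rats were Col13a1 (0.92), Bmp8a (0.9) and Bglap (0.87) for Dmp1. Bglap encodes osteocalcin, a matrix protein of mature osteoblasts. For Phex they were LOC108353095 (0.93), Cdo1 (0.91) and Dkk1 (0.91), and for Mepe Dpp6 (0.91), Lat (0.89) and Gabrd (0.89). For Sost they were Dtx2, Tnip1 and Rfx6 (each 0.88), and for Fgf23 Adgra1 (0.88), Reg3b (0.83) and Scnn1g (0.82), where Spearman's rho was 0.59, 0.68 and 0.43. Behind these values, Fgf23 was at 3 counts or fewer in 18 of the 23 rats and Sost in 9.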

How the data were processed

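Healing tissue of 23 rats was sequenced on a DNBSEQ platform after mRNA library preparation. The deposited values were expected counts per gene, made by the authors from reads aligned to mRatBN7.2; the submitters' processing notes name HISAT and Bowtie2, and the counting program is not given in the sources used here. Of the values, 37.0% were whole numbers, and the counts were rounded. The day-7 sensory nerve- rats came in 1 of the 2 tables and the other rats in the other, and both held the same 20022 genes. Totals of 14854389 to 18742274 counts per rat set the precision, and intervals cover counting error only. Of the 34 samples of the series, 11 of cultured macrophages were not analysed here.

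Genes were tested with edgeR 4.0.16 (R 4.3.3), with trimmed mean of M values scaling, its filter on low counts and the 2-sided quasi-likelihood F test, and p-values were adjusted by the Benjamini-Hochberg method over all genes tested, with a threshold of 0.05. The 9 comparisons of 2 groups were fitted on their own rats, and the 3 differences between nerve effects and the mean over days on all 23. The spread is that between separate rats. Each SE is the absolute log2 fold change divided by the square root of the F statistic. It can be unreliable for small differences. The test was also run on counts simulated from the mean and estimated spread of each gene, and the outcome is not reported here. Such counts do not carry the tissue makeup of single rats. Levels are CPM scaled over 23 rats, and correlations used log2(CPM + 0.5). Alternatives were DESeq2 1.42.0 with its own size factors, those size factors in edgeR, scaling to library totals, no filter on low counts, a term for the replicate number, 1 fit over all rats, leaving out each rat and, chosen after seeing the data, leaving out the 6 rats over 1000 Dspp counts.

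The members, the 4 partner lists and the 12 cell type lists were chosen with earlier results of these data known. The text names the 5 members, partners that passed the threshold or act directly on a member, the 3 genes with the highest Pearson r with each member, and leading genes of the cell type lists. Windows around the annotated gene start came from RefSeq on GRCr8, and no coordinates were converted.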

Additional observations from a re-analysis of the deposited data

Results flagged for a closer look

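Within the groups of 4 rats, 25 sets of values of 1 gene in 1 group were searched for a rat far from the others by Dixon's criterion, which chance meets in about 1 in 20 sets. It was met 3 times. Dmp1 in sensory nerve- day 3 replicate 3 was 304 CPM, against 23.8 to 46.3 in the other 3 rats of the group, and this rat also held 1658 counts of Dspp and a summed ameloblast CPM of 11719. Sost in sensory nerve- day 3 replicate 2 was 0.429 CPM, against 0 to 0.0583 in the other 3, which is a handful of counts. Sost in sensory nerve+ day 14 replicate 2 was 2.14 CPM, against 0.345 to 0.547 in the other 3, and this rat had the lowest muscle sum of its group, 266 CPM.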

How the results depend on the processing

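The 30 group levels moved by less than 1 SD under size factors or library totals. Of 330 member differences under alternatives that kept every rat or left out the 6 Dspp rats, 308 kept their direction and side of the threshold, 8 turned, 13 gained a call and 1 lost it; of 675 with 1 rat left out, 646 kept both, 25 turned, 2 gained and 2 lost a call. Of 126 partner results under the first kind of alternative 88 kept their call and 38 lost it, and of 135 with 1 rat left out 56 kept it and 79 lost it, none with a change of direction; Phospho1 kept its call in all of them. The cause was not tested in any of these cases. Depth limits Sost and Fgf23, which were tested in 6 and 5 of 13 comparisons.

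Size factors changed the direction or call of no member, though they moved the share of calls that were higher, as given below. DESeq2 called more genes: 1 and 95 between nerve states at days 7 and 14, 2807, 320 and 3376 for day 7 against 3, 14 against 7 and 14 against 3 with the nerve, 3217 and 1991 for the first 2 of these without it, 8, 2 and 30 for nerve effects at day 7 against 3, 14 against 7 and 14 against 3, and 8 for the mean over days. It gave calls to Dmp1 between nerve states at day 14 (2.05), to Mepe (2.6), Phex (2.17) and Fgf23 (5.15) at day 14 against 3 with the nerve, to Dmp1 (3.53), Sost (2.86), Mepe (4.45) and Phex (3.68) at day 14 against 7 without it, and to Dmp1 (2.28) at day 14 against 3 without it. Scaling to library totals moved the median of all genes at day 14 between nerve states from 0.03 to -0.41, gave 579, 13 and 547 calls with the nerve, in the order above, and 21 and 1184 without it for day 14 against 7 and against 3, and turned Dmp1 at day 7 against 3 with the nerve (-0.17). Of the calls at day 14 against 3, 46.6% were higher with the nerve and 37.8% without it, 65.4% and 26.0% under library totals, and 45.3% and 48.6% without it under size factors and 1 fit over all rats; DESeq2 called 2426 higher and as many lower without it. That fit gave 2606 calls for day 14 against 3 with the nerve, 2287 for day 7 against 3 and 927 for day 14 against 7 without it, with Fgf23 (4.78) called in the first and Mepe (4.45) and Phex (3.67) in the last.

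The deviations of same-numbered rats had correlations from -0.375 to 0.438, and no comparison had every pair over 0.1. Each comparison held only 3 or 4 pairs, and whether the numbers pair the rats was not tested. With the replicate block, calls were 122, 0 and 0 with the nerve and 2 and 0 without it for day 7 against 3 and 14 against 7; Mepe turned between nerve states at day 3 (-0.55), at day 7 against 3 with the nerve (-0.71) and in the nerve effect at day 7 against 3 (0.47), and Dmp1 at day 7 against 3 with the nerve (-0.09).

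Without the 6 Dspp rats calls were 343, 0 and 257 with the nerve, 22.6% of the last higher, and 0, 0 and 2099 without it. Mepe turned between nerve states at day 7 (-0.1), Dmp1 at day 7 against 3 without the nerve (0.44) and Sost in the nerve effect at day 7 against 3 (-0.42); at day 14 against 3 without the nerve Dmp1 gained a call (3.69) and Mepe lost it (4.16). With 1 rat left out, calls were 254 to 1547, 0 to 28 and 0 to 3133 with the nerve, and 0 to 1359, 0 to 814 and 1620 to 4346 without it. The members that turned, or gained or lost a call, with 1 rat left out ranged as follows. Between nerve states at day 3 these were Dmp1 (-0.39 to 1.86), Mepe (-0.44 to 1.23) and Phex (-0.75 to 1.42), and at day 7 Mepe (-0.52 to 1.11). With the nerve they were Dmp1 (-0.53 to 0.61) and Mepe (-0.28 to 1.51) at day 7 against 3, and Phex (-0.07 to 0.83) at day 14 against 7. Fgf23 (4.3 to 6.65), tested in 4 of 7 fits, was another at day 14 against 3 with the nerve. Without it they were Dmp1 (-2.16 to 0.36) and Mepe (-0.34 to 1.14) at day 7 against 3, and Dmp1 (1.85 to 3.86) and Mepe (4.29 to 5.6) at day 14 against 3. For the nerve effect at day 7 against 3 they were Dmp1 (-2.16 to 0.33), Sost (-0.32 to 2.94) and Mepe (-1.21 to 0.62). For the mean over days it was Fgf23 (-0.13 to 0.99), tested in 20 of 23 fits.

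Ranked by Spearman's rho, the 3 genes most like a member shared 0 with those above for Sost and Fgf23 and 1 for Mepe and Phex; after group means were taken off they shared 0 for Sost, Mepe and Fgf23.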
